A study of Mus musculus with 18 samples.

Results

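The 10 heat shock genes described here were *Hsf1*, *Hsf2*, *Hspa1a*, *Hspa1b*, *Hspa8*, *Hsp90aa1*, *Hsp90ab1*, *Hspb1*, *Dnajb1* and *Dnajb5*, out of 21951 protein-coding genes in the GENCODE M21 basic set on the mm10 build. Their data were all ATAC-seq peaks (stretches of DNA where the transposase of the assay cut often, read as open chromatin) that overlapped a gene from 10000 bp upstream of its start to its end. In 18 libraries, 427 such peaks were listed. Apart from a few found in 1 library only, they merged into 25 of the 73567 regions listed in at least 2 libraries. The libraries were made from whole retinas of wild-type (WT) mice in 6 groups of 3. At 3 months (3mo) and at 18 months (18mo) of age there were retinas of eyes whose intraocular pressure (IOP) was raised to 30 mmHg and kept there for 1 hour, retinas of the contralateral eyes without raised pressure, both taken on day 2 by the sample labels (the study's text gives a different day), and retinas of untreated mice. The study's text names the mice as C57BL/6, a common laboratory strain. The labels do not say which contralateral and which IOP retina came from the same animal, so the p-values below measure the spread between these retinas. Whole retina mixes rods, the most numerous cells, with all other retinal cell types, so a peak cannot be assigned to one of them.

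Heat shock genes encode chaperones, proteins that keep other proteins folded, and the factors that switch them on. Upon heat, oxidative damage or other protein stress, heat shock factor 1 is released from its chaperone partners, forms trimers and binds heat shock elements, inverted repeats of the bases GAA, in front of its target genes. The constitutive members, such as *Hspa8* and *Hsp90ab1*, are used in every cell, whereas *Hspa1a*, *Hspa1b* and *Hspb1* are known as stress-inducible. In the retina, chaperones are known for handling the large protein load of photoreceptors and as a part of the response of ganglion cells to raised pressure.

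The sequence in front of the inducible genes is given first, since heat shock elements lie in front of such genes. The RefSeq promoter table (build GRCm38.p6, the same coordinates as mm10) held 6 of the 10 genes, *Hsf2*, *Hspa1a*, *Hspa1b*, *Hspb1*, *Dnajb1* and *Dnajb5*, with 9 entries for their starts. The 250 bases before each start were searched on both strands for 2 adjoining blocks of a heat shock element, GAANNTTC or TTCNNGAA (each its own reverse complement). Capitals mark the matches in the printed bases, which run from 5′ to 3′ along the gene. The sequences lay at chr17:34972157-34972406 (minus strand) for *Hspa1a*, chr17:34959239-34959488 (minus strand) for *Hspa1b*, chr5:135887669-135887918 (plus strand) for *Hspb1* and chr8:83607925-83608174 (plus strand) for *Dnajb1*, which is shown as an entry without a match.
Hspa1a: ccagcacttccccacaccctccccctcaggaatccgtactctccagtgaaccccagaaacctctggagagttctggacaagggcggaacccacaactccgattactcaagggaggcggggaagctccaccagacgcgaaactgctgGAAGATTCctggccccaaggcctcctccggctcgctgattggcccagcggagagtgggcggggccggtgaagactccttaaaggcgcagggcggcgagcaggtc
Hspa1b: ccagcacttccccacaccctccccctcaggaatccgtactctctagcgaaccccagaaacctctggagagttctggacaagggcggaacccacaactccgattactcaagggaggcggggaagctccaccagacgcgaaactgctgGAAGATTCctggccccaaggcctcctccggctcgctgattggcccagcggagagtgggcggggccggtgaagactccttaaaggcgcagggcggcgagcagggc
Hspb1: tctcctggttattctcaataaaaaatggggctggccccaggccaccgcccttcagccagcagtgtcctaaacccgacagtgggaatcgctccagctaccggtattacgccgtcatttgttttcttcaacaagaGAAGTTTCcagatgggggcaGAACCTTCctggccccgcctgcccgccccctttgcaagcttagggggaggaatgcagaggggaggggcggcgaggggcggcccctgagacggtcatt
Dnajb1: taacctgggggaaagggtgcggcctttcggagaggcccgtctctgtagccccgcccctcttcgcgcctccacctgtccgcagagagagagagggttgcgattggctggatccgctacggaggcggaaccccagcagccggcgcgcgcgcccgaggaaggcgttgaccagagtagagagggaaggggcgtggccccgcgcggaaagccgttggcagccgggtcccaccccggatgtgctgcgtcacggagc

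*Hspa1a* and *Hspa1b* each held 1 match, GAAGATTC, whose bases lay 104 to 97 bp before the start. *Hspb1* held 2 matches, GAAGTTTC at 117 to 110 bp and GAACCTTC at 97 to 90 bp before the start. The entries of *Hsf2*, *Dnajb1* and *Dnajb5* held no match in this window. Of all 32851 promoter entries, 12.8% held at least 1 match. An uninterrupted element of 3 alternating blocks was found in 0 of the 9 entries and in 0.466% of all entries. Only exact blocks were searched, so an element with a mismatched block would have been missed. The bases in front of *Hspa1a* and *Hspa1b* differed at 3 of 250 positions. Over the whole genes, 47.1% of the stretches of 100 bp in *Hspa1a*, the length of a sequenced read, also occurred in *Hspa1b*. In the regions over their starts the share was 30.0% for *Hspa1a* and 21.5% for *Hspa1b*. How reads matching both copies were assigned is not given in the sources used here, so the values of this pair are uncertain.

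Of the 25 regions, 15 (60.0%) were listed, or "called", in all 18 libraries, where 33.6% of all consensus regions were. The median width was 939 bp, against 405 bp for all regions. By the position of the summit, 11 regions were promoters, 1 was exonic, 6 were intronic and 7 intergenic. Promoters ran from 1000 bp upstream to 100 bp downstream of a transcript start. Of all consensus regions, 19.4% were promoters, 6.5% exonic, 47.5% intronic and 26.6% intergenic. The windows here were drawn around gene starts, which the set of all regions was not. All 10 genes had a region over a transcript start of their own. In 9 of the 10 it was called in every library, and the exception was *Hspb1*. Among 21938 protein-coding genes on nuclear chromosomes, 51.9% had a start region called in all libraries. Apart from *Hsp90aa1*, whose gene record begins upstream of the starts used in the basic set, the median summit of the start region lay 37 to 122 bp from the start of the gene record.

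**Figure D1:**
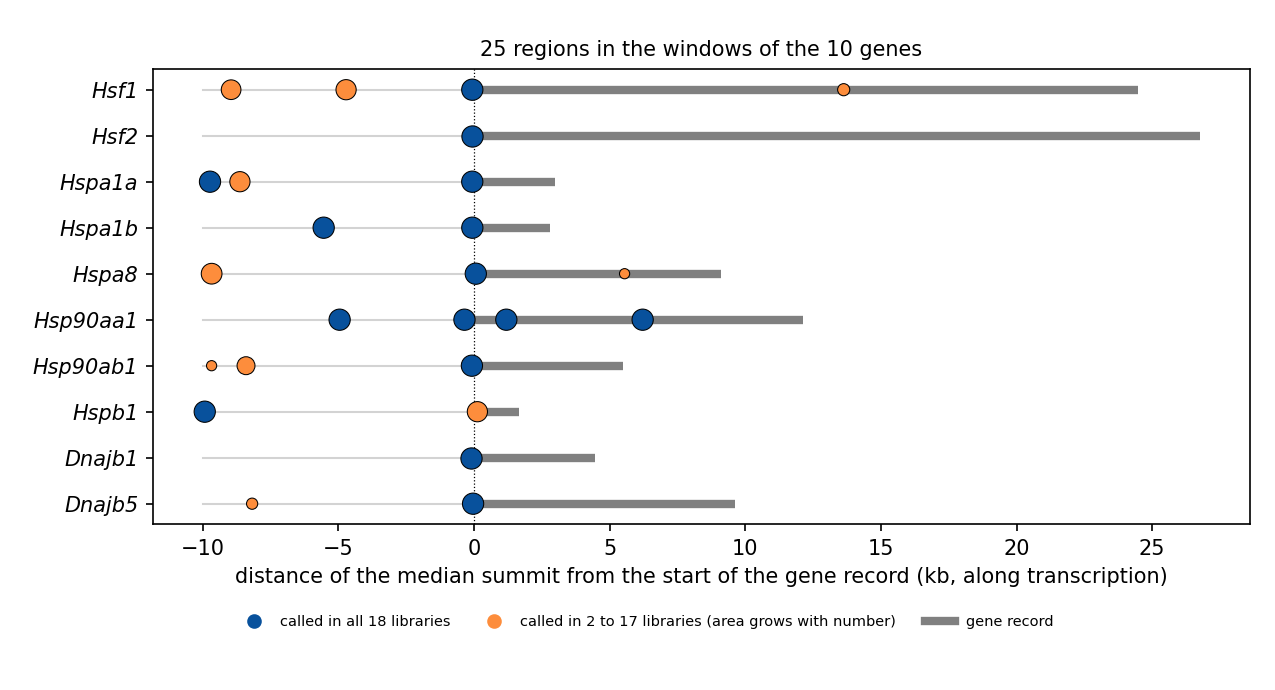
Position of the 25 regions along the 10 genes. The horizontal axis is the distance in kb from the start of the gene record to the median summit, grey bars are gene records, and points are blue where all 18 libraries listed a peak and orange otherwise, with an area that grows with the number of libraries. Blue points sit at the start in 8 genes and inside the record in *Hsp90aa1*, while 9 of the 10 orange points lie away from a start.

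The 15 regions away from a start were less often shared than the start regions, with 6 called in all 18 libraries and 9 in 2 to 17. Of all consensus regions, starts included, 33.6% were called in all 18. The share among all regions away from a start is not given here. To compare peaks within a library, each was given its percentile among all peaks of that library ranked by −log10 q, where 100 is the strongest. The 10 regions not called everywhere had median percentiles of 12.2 to 50.3. The 6 regions away from a start but called everywhere had medians of 46.9 to 94.9. Each library called 18 to 23 of the 25 regions, with 20 to 22 in 3mo contralateral, 20 to 23 in 3mo IOP, 18 to 23 in 3mo untreated, 21 to 23 in 18mo contralateral, 18 to 21 in 18mo IOP and 19 to 23 in 18mo untreated retinas. These ranges overlapped between all groups.

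**Figure D2:**
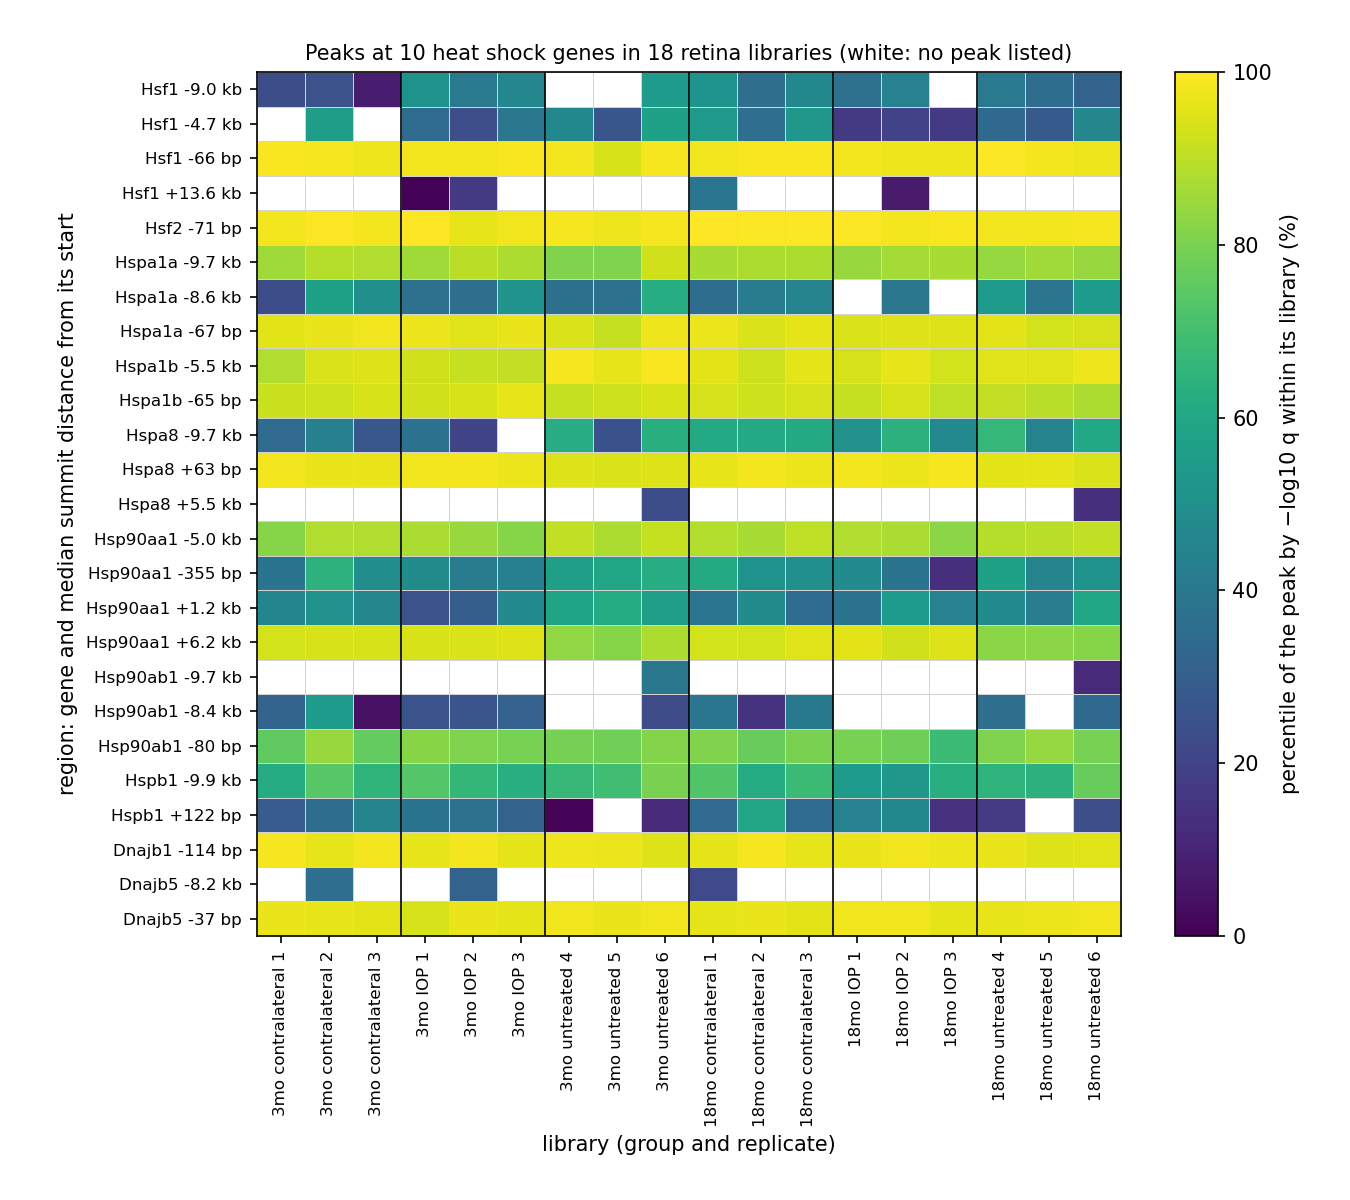
Calls and strength of the 25 regions (rows, gene and median summit distance from its start) in the 18 libraries (columns, separated by group). Colour gives the percentile of the strongest peak by −log10 q within its library, in percent, and white means that no peak was listed. Rows over gene starts are filled across all libraries except for *Hspb1*, and the *Hsp90ab1* row at -8.4 kb is white in the 3 retinas of 18mo IOP.

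The libraries differed in list length and in the shortest peak they listed. List length ran from 36011 peaks (18mo IOP replicate 3) up to 66160 (3mo contralateral replicate 2). Untreated libraries (6) listed peaks down to lengths of 79 to 89 bp, while the minimum in the 12 others was 114 to 157 bp. Kind of control and this property cannot be told apart. The depth in reads is not held by the lists. As a check of the tissue, the starts of the rod genes *Gnat1*, *Nrl* and *Crx* were called in all 18 libraries, and those of 2 lens genes (*Cryaa*, *Lim2*), of *Alb* (liver) and of *Myod1* (muscle) in none. No region covered the starts of the markers fixed for pigment epithelium, microglia or endothelium (2 genes each). Among ganglion cell markers (*Rbpms*, *Pou4f1*, *Nefl*), 1 start was called in all libraries and 2 in some. Of 2 starts each for bipolar, amacrine and Müller cells 1 was called in all libraries and 1 in some, and of 3 cone starts 1 in all, 1 in some and 1 in none.

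The heat shock factors were among the strongest peaks of every library. *Hsf1*, the main stress-activated factor, had a region at chr15:76476941-76477905 with its median summit 66 bp upstream of the start, shared with the start of *Bop1*, a ribosome biogenesis gene on the other strand. Its percentile ran from 94 to 99.3 with a median of 98.2, and the summits of the 18 libraries lay within 55 bp of each other. *Hsf2*, which forms complexes with *Hsf1* and acts in development, had a single region at chr10:57485841-57487005, 71 bp upstream, with percentiles of 96.4 to 99.9. Of 10264 start regions called in all libraries, 93.4% had a lower median percentile than that of *Hsf1* and 94.5% a lower one than that of *Hsf2*.

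*Hsf1* also had 3 weaker regions that were not called everywhere. The one 8958 bp upstream was called in 3 of 3 retinas of each group apart from 3mo untreated (1 of 3) and 18mo IOP (2 of 3). The one 4719 bp upstream was called in every library but 3mo contralateral replicates 1 and 3. Both lie in introns of *Bop1*. The intronic one 13627 bp downstream was called in 4 libraries, 3mo IOP replicates 1 and 2, 18mo contralateral replicate 1 and 18mo IOP replicate 2. Each of the 3 groups with a call therefore held an uncalled retina as well.

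Among the HSP70 genes, the 3 starts were open in every library. *Hspa1a* (region chr17:34971642-34972714, also near the start of *Hspa1l*, a testis-enriched relative) had percentiles of 91.2 to 97.9, and *Hspa1b* (chr17:34958281-34959735) of 87.8 to 96.2. Their summits lay 67 and 65 bp upstream of the start, inside the printed bases in 18 of 18 libraries for both genes. In single libraries the summit lay at -75 to -47 bp from the start of *Hspa1a*, downstream of the match in capitals in every library, and at -125 to -31 bp from that of *Hspa1b*. The summits of *Hspa1a* spread over only 28 bp among the libraries. *Hspa8*, the constitutive HSP70 that also uncoats clathrin vesicles at synapses, had a region at chr9:40800103-40801662 with percentiles of 94.2 to 98.8 and summits spread over 287 bp around the start.

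Away from the starts, a region 5545 bp upstream of *Hspa1b* (chr17:34964316-34965254, intergenic, between *Hspa1b* and *Hspa1a*) was called in all 18 libraries with a median percentile of 94.9, higher than the 92.3 of the *Hspa1b* start itself. In the window of *Hspa1a*, the region 9736 bp upstream belonged to the start of *Lsm2* and was called in all libraries. The weaker one 8633 bp upstream was called in 16, missing in 18mo IOP replicates 1 and 3. The region 9676 bp upstream of *Hspa8* was called in all but 3mo IOP replicate 3. A region 5549 bp downstream of the *Hspa8* start was called only in untreated replicate 6 of both ages, with percentiles of 23.2 and 13.7.

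The HSP90 genes encode the chaperones that hold kinases and steroid receptors, and they keep heat shock factor 1 inactive in unstressed cells. All 4 regions of *Hsp90aa1*, the stress-inducible form, were called in 18 libraries. The strongest covered the basic transcript starts at chr12:110695689-110696945, 6215 bp inside the gene record, since the record begins with a longer transcript. Its percentile was 93.3, 93.9 and 93.8 in the 3mo contralateral, 93.8, 94.5 and 94.6 in the 3mo IOP, 93.2, 93.1 and 95.0 in the 18mo contralateral and 95.7, 92.8 and 94.9 in the 18mo IOP retinas. It was 83.4, 82.0 and 87.7 in the 3mo untreated and 82.5, 82.6 and 81.7 in the 18mo untreated retinas. The 6 untreated retinas thus lay below the 12 others without overlap. The other 3 regions of the gene, 4957 and 355 bp upstream and 1189 bp downstream of the start of the record, had median percentiles of 87.9, 49.3 and 46.9.

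*Hsp90ab1*, the constitutive form, had the widest of the 25 regions over its start, 2252 bp at chr17:45572414-45574665. Its percentile of 68.3 to 84.4 (median 79.5) was moderate, and 26.2% of the start regions called everywhere had a lower median. The region 8408 bp upstream (chr17:45581472-45581844, intergenic) differed most between groups. It was called in 3 of 3 retinas of 3mo contralateral, 3mo IOP and 18mo contralateral, in 1 of 3 of 3mo untreated, in 2 of 3 of 18mo untreated and in 0 of 3 of 18mo IOP. Where it was called it was a weak peak, with percentiles of 3.94 to 54.5 and a median of 31.2.

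The bases around the median summit of that region, chr17:45581579-45581778, are shown as the sequence under the difference, on the minus strand that carries *Hsp90ab1*. They held no match to GAANNTTC or TTCNNGAA. The nearest other protein-coding gene was *Slc29a1*, a nucleoside transporter, whose record ended 3521 bp away and whose start lay 17927 bp away.
Hsp90ab1 upstream region: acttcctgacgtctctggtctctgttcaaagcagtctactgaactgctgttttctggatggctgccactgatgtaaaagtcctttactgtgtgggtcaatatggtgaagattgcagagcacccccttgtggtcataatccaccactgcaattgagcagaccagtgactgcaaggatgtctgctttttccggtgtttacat

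The small heat shock protein *Hspb1* (HSP27, which protects actin and binds unfolded proteins) had the least open start of the 10 genes. Its region at chr5:135887618-135888582 was called in 16 libraries, all but untreated replicate 5 at both ages. The percentile had a median of 34.4, and 0.273% of the start regions called everywhere had a lower median. The *Hspb1* region is itself not in that set, which leaves out starts missed by any library. Of 13107 genes with a start region, 11380 had one called in all 18 libraries. The rank among all start regions is not given here. The percentile of *Hspb1* was 29.0 to 58.7 in the 6 contralateral, 14.3 to 46.8 in the 6 IOP and 1.07 to 23.7 in the 4 untreated retinas that called it. The summits spread over 368 bp, and 4 of 16 lay in the printed bases that hold the 2 matches. A region 9930 bp upstream, across the edge of the window, was called in all libraries with a median percentile of 65.6.

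The J-domain proteins hand unfolded proteins to HSP70 and start its ATP cycle. *Dnajb1* (HSP40) had a single region, over its start at chr8:83607563-83608923, with percentiles of 94.7 to 98.8 in all libraries. *Dnajb5* had a start region at chr4:42949147-42950575 with percentiles of 93.7 to 98. Its second region, exonic and 8183 bp upstream, was called in 3 libraries, replicate 2 of 3mo contralateral, replicate 2 of 3mo IOP and replicate 1 of 18mo contralateral.

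**Figure D3:**
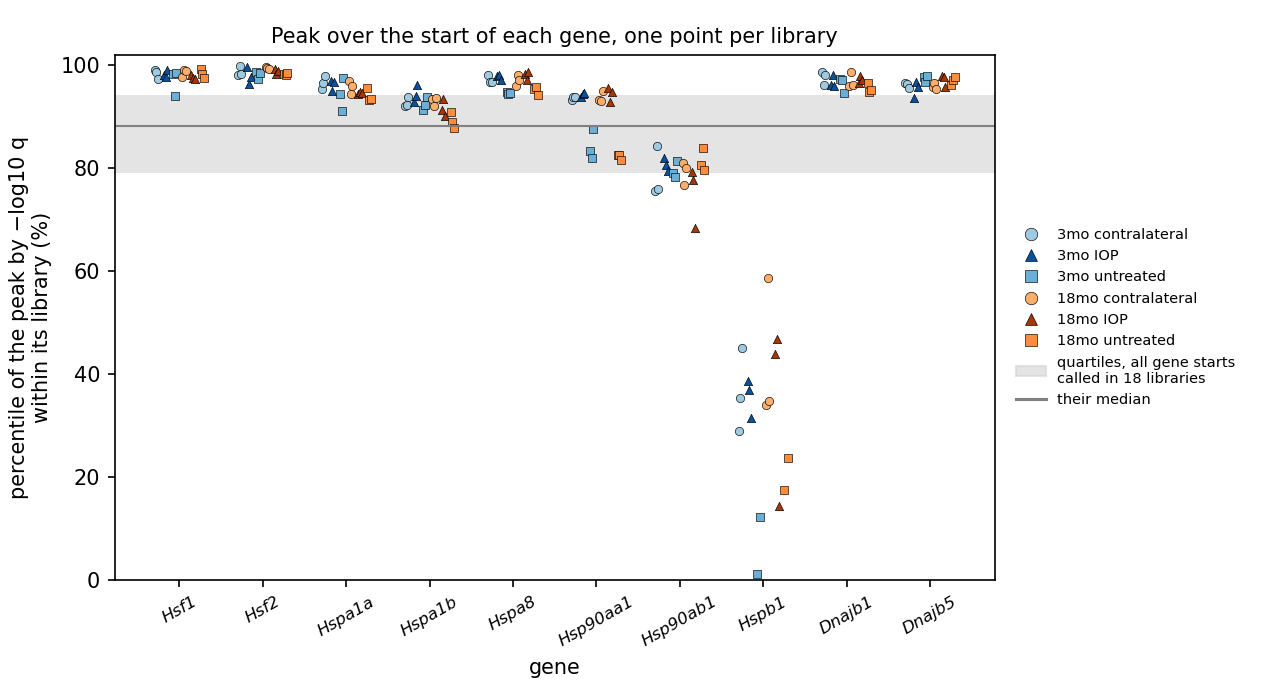
Percentile (%, by −log10 q within its library) of the strongest peak over the start of each gene, 1 point per library with colour and shape for the group. The grey band holds the middle of all 10264 start regions called in all libraries (quartiles 79.0 and 94.2, median 88.2). The start region of *Hspb1* is not in that set. Points of *Hsf2* and *Dnajb1* and nearly all of *Hsf1*, *Hspa8* and *Dnajb5* lie above the band, those of *Hspb1* far below it, and the untreated points (squares) of *Hsp90aa1* below the others.

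Whether age changed the calls was asked with the 12 control retinas, 6 of 18mo against 6 of 3mo. Fisher's exact test can fall under 0.05 in this design for regions called in 5 to 7 of the 12 libraries, which were 13.4% of all consensus regions and 0 of the 25. The largest differences were 6 of 6 retinas at 18mo against 4 of 6 at 3mo, seen for the *Hsf1* regions 8958 and 4719 bp upstream (p = 0.455 for both, Fisher's exact test, two-sided). Over all testable regions the smallest adjusted p was 0.345. No difference in calls with age was detectable for these genes.

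The number of peaks in the window of each gene gave 1 unadjusted difference with age. *Hsf1* had 2, 3, 2, 2, 2 and 3 peaks in the 3mo controls and 4, 3, 3, 3, 3 and 3 in the 18mo controls, a difference of 0.833 peaks (p = 0.0455, exact permutation test, two-sided). It was higher by the same test in 1.55% of 17022 genes, and the Benjamini-Hochberg adjusted p over all genes was 1. Without 18mo contralateral replicate 1, or with the same number of peaks kept from every list, its p was no longer under 0.05. The other 9 genes had unadjusted p-values of 0.152 to 1.

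The height of the summits was compared in the 15 regions called everywhere, as log2 of the summit fold (pileup over local background of the same library), quantile normalized across the 24751 regions called in all libraries and tested with limma. For age, 0 of the 15 passed an adjusted p of 0.05, and 0.307% of all 24751 did. At an unadjusted p under 0.05 there were 2 of 15, the starts of *Hspa1b* (-0.20 ± 0.08 SE on the log2 scale, adjusted p = 0.326) and *Hspa1a* (-0.17 ± 0.08 SE, adjusted p = 0.360), against 12.6% of all regions. Given the shared sequence of this pair and the unknown assignment of shared reads, they cannot be counted as separate observations. All 15 estimates lay below 0, with a median of -0.105, against -0.0139 over all regions. The 9 start regions among them had a median of -0.0677, against -0.0481 over all start regions called everywhere. Of the latter, 28.8% lay above 0. With percentiles of −log10 q in place of the fold, 6 of the 15 lay above 0, with a median of -0.32 percentile points against 1.42 over all regions.

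The effect of pressure was asked within each age, IOP against contralateral retinas. With 3 against 3 the smallest possible exact p is 0.1, so the count was of regions that all 3 retinas of one side called and no retina of the other. At 3 months 0 of the 25 regions were of this kind, where 0.458% of all regions were. At 18 months 0 of 25 were gained (0.239% of all regions) and 1 was lost, the region 8408 bp upstream of *Hsp90ab1*, where 2.23% of all regions were lost. 1 of 25 is close to that background. At 3 months the same region was called in all 6 retinas, and over both ages it was called in 3 of 6 IOP and 6 of 6 contralateral retinas (p = 0.1, exact conditional test within age, two-sided). With the same number of peaks kept from every list it was not exclusive to either side. Nor was it when a peak had to cover 50% of the region.

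The 3 lists of 18mo IOP held 48688, 48723 and 36011 peaks, against 60755, 51166 and 57297 in 18mo contralateral retinas, and the part of this difference in the lost call was not tested. The exact test over both ages could fall under 0.05 for 7.57% of all regions and for 0 of the 25. For the number of peaks per gene, 0 of the 10 genes had an unadjusted p under 0.05 (1.17% of 16953 genes had, exact permutation test within age), with the lowest p at 0.400 for *Hspa1a* and *Hsp90ab1*.

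Summit folds did not separate IOP from contralateral retinas at these genes. At 3 months 0 of 15 regions passed (limma, adjusted p under 0.05), where 0.00404% of all regions did, and 0 of 15 had an unadjusted p under 0.05 (3.56% of all). At 18 months 0 of 15 passed (0.121% of all). The start of *Dnajb5* was the 1 region with an unadjusted p under 0.05 (12.6% of all), with 0.26 ± 0.11 SE and an adjusted p of 0.372. At 18 months 13 of 15 estimates lay above 0, with a median of 0.114, against 0.0245 over all regions. The 9 start regions among them all lay above 0, with a median of 0.158. Over all start regions called everywhere the median was 0.0776, and 71.3% lay above 0. With percentiles of −log10 q, 5 of the 15 lay above 0, with a median of -0.942 percentile points against -5.41 over all regions. The interaction of IOP with age passed for 0 of 15 regions and for 0% of all (0 of 24751). At an unadjusted p it was under 0.05 in 1 of 15 (4.58% of all), the region 1189 bp inside the *Hsp90aa1* record (0.49 ± 0.21 SE, adjusted p = 0.898).

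**Figure D4:**
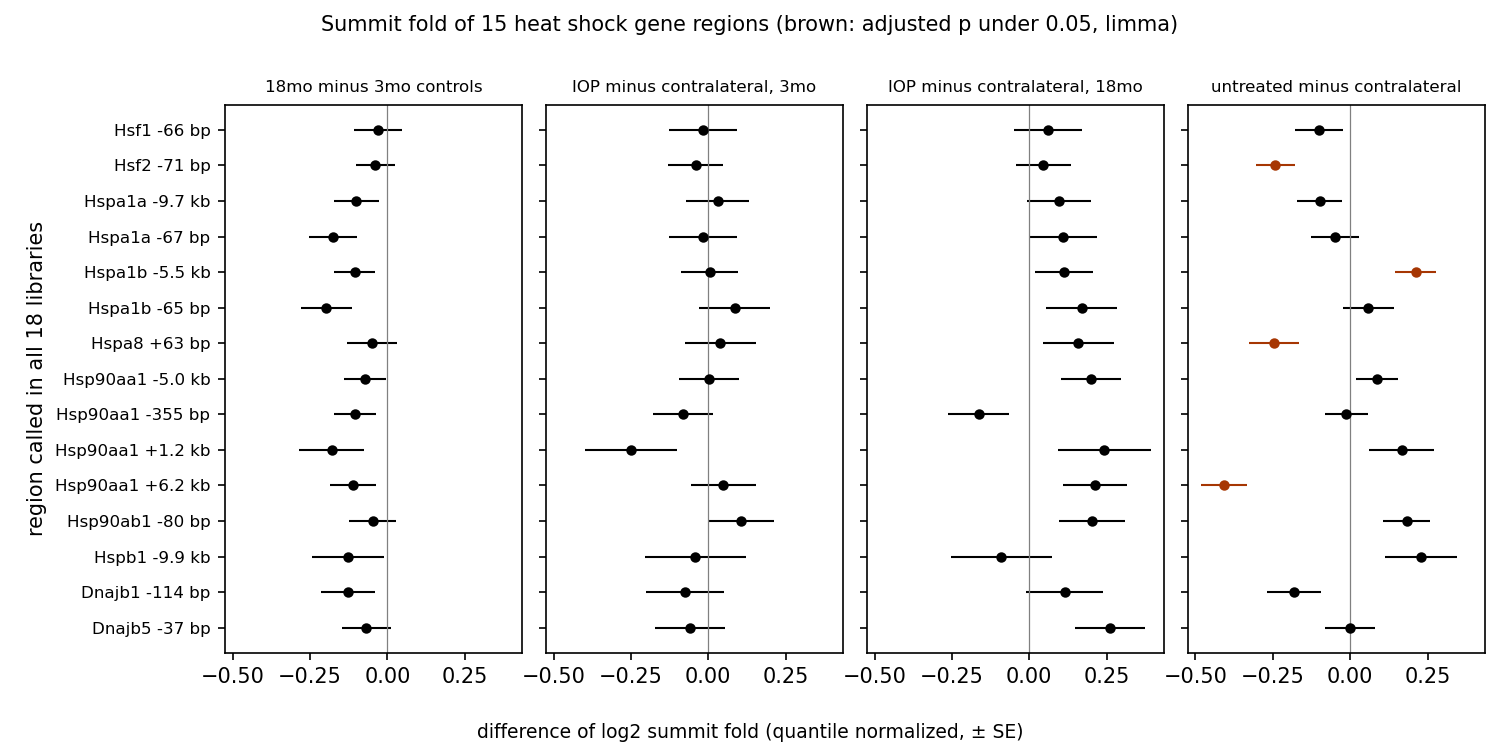
Difference of the log2 summit fold (points, with SE bars) in the 15 regions called in all 18 libraries, for 4 comparisons. The horizontal axis is the difference after quantile normalization and brown marks an adjusted p under 0.05 (limma). No region is brown for age or IOP, and *Hsf2*, *Hspa8*, the *Hsp90aa1* start and the region between *Hspa1b* and *Hspa1a* are brown for untreated against contralateral retinas.

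Both kinds of control were compared because they differ in the shortest listed peak. Fisher's exact test on calls could fall under 0.05 for 13.4% of all regions and for 0 of the 25. In summit fold, 3 of 15 regions were lower in untreated than in contralateral retinas (15.8% of all 24751 regions were) and 1 was higher (17.5% of all were). The start of *Hsp90aa1* differed most, with a log2 summit fold of 2.86 ± 0.07 in untreated and 3.27 ± 0.13 in contralateral retinas (SD, n = 6 each) and a difference of -0.41 ± 0.07 SE (limma, adjusted p = 0.000723). Its quantile normalized values ran from 2.78 to 2.96 in untreated and from 3.14 to 3.45 in contralateral retinas, without overlap. Its deposited folds did overlap, with 8.21 to 9.39 in untreated and 8.45 to 10.2 in contralateral retinas. The start of *Hsf2* differed by -0.24 ± 0.06 SE (limma, adjusted p = 0.00779) and that of *Hspa8* by -0.25 ± 0.08 SE (limma, adjusted p = 0.0277). Both differences are those after quantile normalization. In the deposited folds, the medians of untreated and contralateral retinas were 16.75 and 16.95 for *Hsf2*. For *Hspa8* they were 10.85 and 10.35, in the opposite direction. The region 5545 bp upstream of *Hspa1b* was higher in untreated retinas by 0.21 ± 0.07 SE (adjusted p = 0.0214). The last of these lost its call with median centring in place of quantile normalization, which moved the split of all regions from 4333 higher and 3905 lower to 3501 and 4723. It was also lost without 3mo contralateral replicate 1, 3mo untreated replicate 4, 18mo contralateral replicate 2 or 18mo untreated replicate 6. *Hspa8* lost its call without 3mo contralateral replicate 1 or 3, 3mo untreated replicate 6, 18mo contralateral replicate 2 or 18mo untreated replicate 6. A covariate was also tried that marked the libraries whose shortest listed peak was 148 to 157 bp long. None of these was untreated, so it did not adjust for the shorter peaks of untreated libraries. With it, *Hspa8* also lost its call and the *Hsp90aa1* region at 1189 bp gained one. This left 2 regions lower and 2 higher in untreated retinas. With percentiles of −log10 q, *Hsf2*, *Hspa8* and the *Hspa1b* region lost their calls.

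The number of peaks differed for 2 genes between the kinds of control, both higher in untreated retinas (7.57% of all genes were higher at the same threshold). *Hsp90ab1* had 2 peaks in each of the 6 contralateral retinas and 4, 4, 4, 2, 3 and 4 in the untreated ones (difference 1.5, p = 0.0152, exact permutation test, adjusted p = 0.262). *Hspa1b* had 2 in each contralateral retina and 3, 3, 2, 3, 3 and 3 in the untreated ones (difference 0.833, p = 0.0152, exact permutation test, adjusted p = 0.262). The start region of *Hsp90ab1* held 1 peak in each contralateral retina and 4, 4, 2, 1, 3 and 2 peaks in the untreated ones. In untreated replicate 6 of both ages, the other 2 of its 4 peaks lay 8408 and 9677 bp upstream, and the region at 9677 bp was called in no other library. The start region of *Hspa1b* held 1 peak in each contralateral retina and 2, 2, 1, 2, 2 and 2 in the untreated ones. The part of the shorter peaks of untreated libraries in this was not tested.

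Of 53 other chaperone and heat shock response genes, 44 (83.0%) had a start region called in all 18 libraries, 4 in some and 5 in none. Among all protein-coding genes on nuclear chromosomes, 51.9% had a start region called in all libraries. Among the 6 other small heat shock protein genes of that list, grouped after their values were seen, only *Hspb6* was called in all libraries (percentile 88.0). *Cryab* was called in 17 (25.4), *Hspb8* in 16 (40.0) and *Hspb3* in 9 (27.0), and no region covered the starts of *Hspb2* and *Hspb7*. In the windows of the 53 genes there were 137 regions, 79 of them called in all libraries (33.6% of all consensus regions were). At 3 months 0 of the 137 regions were gained or lost with IOP (0.458% of all regions were). At 18 months 1 was gained (0.239% of all regions were), at *Fkbp5* (a glucocorticoid-induced co-chaperone). At that age 1 was lost (2.23% of all regions were), at *Hspa4l* (an HSP110 family member). Both genes were named after their values were seen. None of the 43 start regions of these 44 genes passed for age or IOP in summit fold (limma, lowest adjusted p 0.247 for age, 0.346 for IOP at 18 months), and 9 (of 10 genes, since *Hspd1* and *Hspe1* share a region) were lower and 0 higher in untreated than in contralateral retinas. Of all 10264 start regions called everywhere, 18.7% were lower and 8.14% higher in the same comparison. The lowest adjusted p among the 10 was 0.00041, for *Chordc1*, an HSP90 co-chaperone (-0.47 ± 0.08 SE).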

How the data were processed

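Each of the 18 lists holds the peaks of 1 library. Per the labels and the study's text the authors called them with MACS2 at a q-value of 0.05 on mm10, and the labels also name STAR 2.7.8a, HOMER, edgeR and bedtools 2.29.2 without their roles. Alignment settings, duplicate removal and any shift for the transposase are not given in the sources used here. The deposited score equals −log10 q multiplied by 10 and cut to a whole number. The deposited fold (a ratio) sets the summit pileup against local background, and the authors' −log10 p-value and −log10 q-value belong to the summit, whose offset is also deposited. The labels' protocol describes crosslinking beside ATAC-seq amplification and names dasatinib, although none of the 18 is labelled as drug treated. Libraries were used as ATAC-seq, as titled.

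Overlapping peaks (1 bp or more) of the 18 lists were joined into regions, and those with peaks from at least 2 libraries were kept. A library called a region with 1 or more peaks in it. A region not called can be open and under the threshold. Calls were compared with exact tests, peaks per gene with exact permutation tests (924 arrangements for age and kind of control, 400 within age for IOP), and summit folds with limma 3.58.1 in R 4.3.3, each over all regions or genes with the Benjamini-Hochberg adjustment. All were tested on simulated data. Genes named beyond the 10 were those whose start region met these thresholds, at most 8, of a list of 53, neighbours and markers of the tissue, or genes stated to be named after their values were seen. The 10 genes and all lists were chosen with earlier results of these data known. The alternatives comprised a −log10 q of at least 3, equal list lengths, 50% coverage, every merged region, a wider window, strata, other scalings and leaving out each library. One marker gene of the tissue check is not reported here.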

Additional observations from a re-analysis of the deposited data

How the results depend on the processing

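The 15 regions called in all libraries became 12 to 20 of 21 to 34 under the 5 other settings for calls and windows. Exclusive regions at 18 months, 1 in the report, were 0 with equal list lengths and 0 when a peak had to cover 50% of the region. They were 3 with the window extended 10 kb past the gene end, which added losses beside *Dnajb5* and *Hspb1*. That window added 9 regions, 2 of them lost, where 2.23% of all regions were lost. Leaving out each replicate gave 1 to 2, the second being the *Hspa1a* region 8633 bp upstream without 18mo IOP replicate 2. At 3 months the count of 0 became 1 with 50% coverage (*Hsf1*, 4719 bp upstream). It was 0 to 1 leaving out each replicate. The same region was gained without 3mo contralateral replicate 2, and the one 13627 bp downstream without 3mo IOP replicate 3. With a replicate left out, fewer libraries have to differ for a region to be exclusive. Shares over all regions with equal list lengths or with a replicate left out are not given here. Kind of control went from 0 to 4 regions with 50% coverage, all fewer in untreated retinas (*Hsp90aa1* 355 bp upstream and 1189 bp downstream, *Hsp90ab1* 8408 bp upstream, *Hspb1* 9930 bp upstream). The share over all regions under this setting is not given here. In this order, the median listed widths in these regions were 146, 461, 103 and 318 bp in untreated retinas. They were 274.5, 673.5, 236 and 496.5 bp in contralateral retinas, and the part of width in these calls was not tested. For peaks per gene, the age count of 1 became 0 with equal list lengths, and 0 to 1 leaving out each replicate. The 4 summit folds called between kinds of control became 1 with percentiles of −log10 q and 2 to 5 leaving out each replicate (2 without 3mo contralateral replicate 1, 18mo contralateral replicate 2 or 18mo untreated replicate 6). The *Hsp90aa1* start kept its call in all 22 alternatives, *Hsf2* in 21, the *Hspa1b* upstream region in 16 and *Hspa8* in 15. None of these 4 estimates changed sign in these alternatives, all of which put the libraries on a common scale. The deposited folds were not tested without such a step. The causes were not tested, beyond the fewer libraries or peaks of a setting itself.

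Replicate numbers were not taken to pair the eyes: deviations of same-numbered contralateral and IOP retinas correlated at -0.313, -0.239 and 0.199 at 3 months and 0.356, 0.212 and -0.155 at 18 months. With the replicate block, 0 of the 15 regions passed for IOP at either age or for its difference between ages. Called regions fell to 0 of 24751 at both ages.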
